A study of Mus musculus with 3 samples.

Results

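The respiratory chain of the inner mitochondrial membrane passes electrons from NADH and succinate to oxygen through complexes I to IV and pumps protons as it does so. Complex V, the ATP synthase, lets those protons flow back and makes ATP, so the subunits of all these complexes are housekeeping genes in nearly every nucleated cell. Lymphocytes at rest live largely on this route, and most subunits are encoded in the nucleus, translated in the cytosol and imported. The genes described here are the nuclear genes whose array name follows the subunit families Nduf (letters a, b, c, s and v), Sdha to Sdhd, Uqcr, Cyc1, Cox with a digit from 4 to 8 and a letter from a to c, and Atp5. They number 85 of the 36609 gene names on the array, and all 85 matched a RefSeq symbol. By complex they are 37 genes of complex I, 4 of complex II, 9 of complex III, 16 of complex IV, 17 of complex V, and the pair Ndufa4 and Ndufa4l2, named after complex I although Ndufa4 protein is now counted with complex IV. The naming pattern leaves out Cox4i1, Cox4i2, Ndufab1, cytochrome c and the subunits encoded in mitochondrial DNA, which are given separately below.

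The study asked what urine does to spleen cells. Cultured spleen cells, taken from MRL/MpJ males at 6 months of age, spent 3 h in contact with 1 of 3 fluids. These were urine from MRL/MpJ-Faslpr/lpr donors, called lpr urine here, urine from MRL/MpJ donors, called MRL/MpJ urine, and phosphate-buffered saline (PBS). The donors were males, also 6 months old, and each strain's urine was a pool from 6 of them, spun and passed through a sterile filter. MRL/MpJ-Faslpr/lpr mice carry the lpr mutation of the Fas death receptor gene and develop lupus-like autoimmune disease with nephritis on a background that is itself prone to autoimmunity. Only the urine donors differed in Fas, since every culture held cells with intact Fas. Red cells had been lysed before culture, and neither the share of urine in the culture volume nor the number of spleens behind a culture is given in the sources used here.

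RNA of each culture was labelled with one dye and hybridised to 1 array, so each condition has 1 array and no replicate. No difference below has a test, an error between cultures or a p-value. The only spread that could be measured was that of probes spotted several times on an array, which is a lower limit on technical error. For these probes the SD of a log2 difference between 2 arrays was 0.052 above a log2 signal of 11, 0.095 between 8 and 11, 0.12 between 5 and 8, and 0.37 under 5. Signals are Agilent's processed signals, in intensity units. Log2 differences were taken after each array had been divided by the 75th percentile of its own probes, which was 75.7 units with lpr urine, 86.6 with MRL/MpJ urine and 157.5 with PBS. A gene counts as measured where the scanner software called its probe well above background.

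Scaling decides the sign of small differences in these data. The E1A spike-ins, synthetic RNAs added in fixed amounts, differed from the PBS array by -0.05 log2 units with lpr urine and 0.04 with MRL/MpJ urine, whereas the 75th percentile differed by -1.06 and -0.86. Scaling by the spike-ins therefore moves every lpr urine difference by -1.01 and every MRL/MpJ urine difference by -0.90 relative to the values given here. The median over all genes is then -0.86 and -0.78, against 0.15 and 0.13 with 75th percentile scaling. Fewer cells of a type, less RNA per cell and a difference in RNA amount, quality or labelling cannot be told apart on these arrays. The description below therefore leans on how a gene lay relative to other genes, which no constant scaling changes.

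Several probes report 35 of the 85 genes, and 1 probe stood apart, so the sequences behind the c ring of complex V are given first. The c ring is the rotor that protons turn, and the genes Atp5g1, Atp5g2 and Atp5g3 encode the same mature subunit c with different import sequences. The probes below are 60 bases long and are printed 5′ to 3′ with their positions in the mouse build mm9, all on the minus strand. The first 3 are the probes of Atp5g1 on chromosome 11, made for an Ensembl transcript (chr11:95930317-95930376) and for 2 curated RefSeq transcripts (chr11:95934315-95934374 and chr11:95934924-95934983). The next are those of Atp5g2 (chr15:102493359-102493418) and Atp5g3 (chr2:73746519-73746578). The last are probes of the unrelated genes Naip5 (chr13:100981843-100981902) and Rnpep (chr1:137174351-137174410), shown because they resemble the first. Capitals mark, in Naip5 and Rnpep, the 30-base window that best matches the first probe, and in the first probe the 30-base window most often matched by the measured similar probes, so windows can be offset by a few bases.
Atp5g1, Ensembl transcript: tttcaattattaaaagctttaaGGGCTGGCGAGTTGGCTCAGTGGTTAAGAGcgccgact
Atp5g1, RefSeq transcript NM_001161419: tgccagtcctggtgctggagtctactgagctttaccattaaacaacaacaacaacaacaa
Atp5g1, RefSeq transcript NM_007506: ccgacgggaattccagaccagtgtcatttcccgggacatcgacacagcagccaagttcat
Atp5g2: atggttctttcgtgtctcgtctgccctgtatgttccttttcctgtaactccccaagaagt
Atp5g3: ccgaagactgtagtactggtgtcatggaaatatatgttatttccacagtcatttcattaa
Naip5: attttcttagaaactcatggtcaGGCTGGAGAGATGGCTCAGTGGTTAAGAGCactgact
Rnpep: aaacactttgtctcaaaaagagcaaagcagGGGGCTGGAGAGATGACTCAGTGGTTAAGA

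Of the 85 genes, 82 were measured on all 3 arrays. Ndufa4l2, Cox8b and Cox8c were well above background on none. Most of the measured genes stayed near their PBS level once arrays had been scaled. Their median log2 difference was -0.06 with lpr urine and -0.03 with MRL/MpJ urine, with quartiles of -0.34 and 0.32 and of -0.36 and 0.34. At least 2-fold higher was 1 of 82 with either urine, Atp5g1, while 0 were at least 2-fold lower. Over all 19368 genes measured with lpr urine and PBS, 18.5% were at least 2-fold higher and 12% at least 2-fold lower. Over the 19639 genes measured with MRL/MpJ urine and PBS the shares were 16.9% and 11.1%.

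Those shares include many dim genes, whereas the respiratory chain genes are mostly bright. The nearer comparison is with genes between the quartiles of the members' PBS signal, from 1638 to 4435 units, which holds 1699 genes and 40 members. Among these genes 6.71% were 2-fold higher and 18.6% were 2-fold lower with lpr urine, and 6.59% were 2-fold higher and 17.1% were 2-fold lower with MRL/MpJ urine. Of the 40 members in the same range, 1 was higher and 0 were lower with either urine. With lpr urine the quartiles were -0.55 and 0.14 for the 40 members and -0.82 and 0.27 for all these genes. With MRL/MpJ urine they were -0.54 and 0.09 for the members and -0.80 and 0.25 for the genes.

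Before scaling, the median member of every complex gave less light with urine than with PBS. The median signal of the 82 genes was 1228 units with lpr urine, 1394 with MRL/MpJ urine and 2928 with PBS. The share of the 85 genes in the summed signal of all gene names, each read from its chosen probe, was 0.742% with lpr urine, 0.764% with MRL/MpJ urine and 0.907% with PBS. The summed signal of the 85 genes was 167685 units with lpr urine, 192262 with MRL/MpJ urine and 306777 with PBS.

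**Figure D1:**
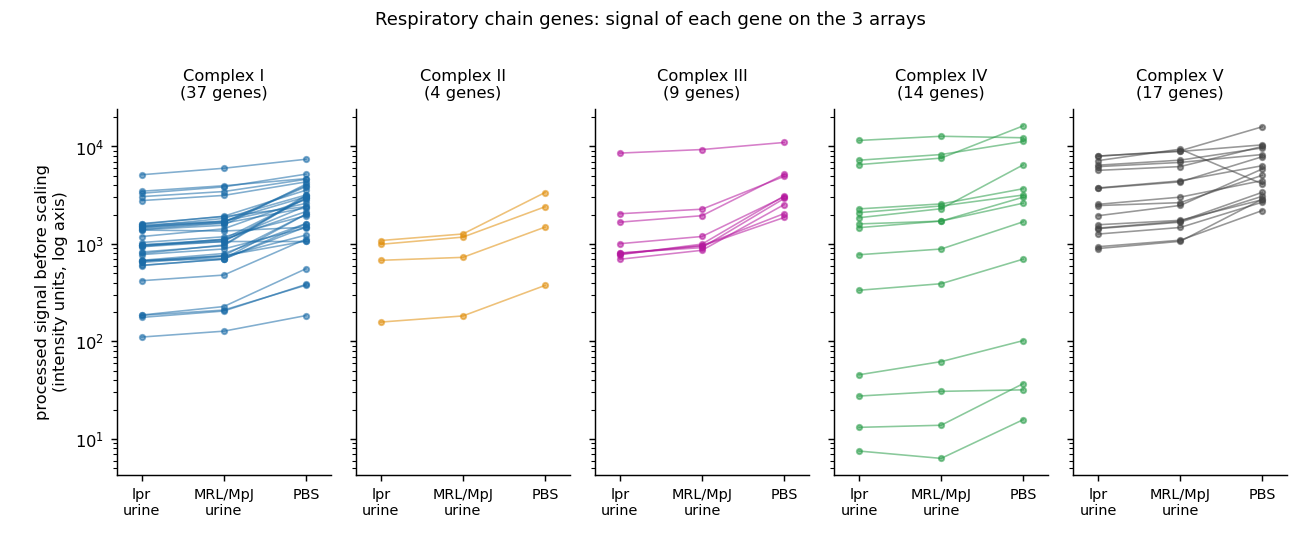
Processed signal before scaling (intensity units, log axis) of each gene measured on all 3 arrays, in 1 panel per complex, with a line joining the lpr urine, MRL/MpJ urine and PBS arrays, 1 array each. The median over the 82 genes is 1228 units with lpr urine, 1394 with MRL/MpJ urine and 2928 with PBS, and in complex V the line of Atp5g1 stands higher with either urine than with PBS (7163, 9389 and 4128 units in that order).

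Atp5g1 was the single gene past 2-fold, and its 3 probes gave different answers. The chosen Ensembl probe read 7163 units with lpr urine, 9389 with MRL/MpJ urine and 4128 with PBS. Its log2 difference was 1.85 with lpr urine and 2.05 with MRL/MpJ urine, and under spike-in scaling it was 0.84 and 1.14. The RefSeq probe for NM_001161419 read 2058 units with lpr urine, 2491 with MRL/MpJ urine and 3407 with PBS, a difference of 0.33 and 0.41. The RefSeq probe for NM_007506 read 542 units with lpr urine, 602 with MRL/MpJ urine and 982 with PBS, a difference of 0.20 and 0.16. Before scaling, both RefSeq probes were dimmer on each urine array than with PBS, and only the Ensembl probe was brighter.

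The capitalised window of the Ensembl probe resembles B2, a short interspersed repeat found in very many copies in rodent genomes and in the untranslated parts of many transcripts. The array holds 14 probes of other gene names that match this probe at 24 or more of 30 positions in an ungapped window, of which 11 were measured on all 3 arrays. Of these 11, 11 were at least 2-fold higher with lpr urine and 10 with MRL/MpJ urine, and 0 were lower, against the 18.5% and 16.9% of all genes given above. Their differences ran from 1.01 to 2.01 with lpr urine (median 1.41) and from 0.72 to 2.22 with MRL/MpJ urine (median 1.73). Naip5, matching at 28 positions, read 16231 units with lpr urine, 21030 with MRL/MpJ urine and 12699 with PBS, a difference of 1.41 and 1.59. Rnpep, matching at 26, read 1909 units with lpr urine, 2395 with MRL/MpJ urine and 985 with PBS, a difference of 2.01 and 2.15. Of all 131 probes of the 85 genes, 15 had any such match, and each of the others had 1. The search and its limit of 24 positions were chosen after the Atp5g1 values had been seen, and the part of the shared sequence in the Atp5g1 value was not tested.

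The other c ring genes lay on both sides of 0. Atp5g2, whose probe was spotted 10 times, read 7977 units with lpr urine, 8883 with MRL/MpJ urine and 10389 with PBS. Its difference was 0.68 and 0.64, and the SD of log2 signal between its 10 spots on an array was 0.10, 0.08 and 0.09. It lay 0.03 above genes of the same PBS signal with either urine. Atp5g3 read 1949 units with lpr urine, 2484 with MRL/MpJ urine and 5884 with PBS, a difference of -0.54 and -0.38. Its second probe, for an Ensembl transcript, was dim at 35.3, 41.8 and 235 units in the same order and differed by -1.68 and -1.63.

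**Figure D2:**
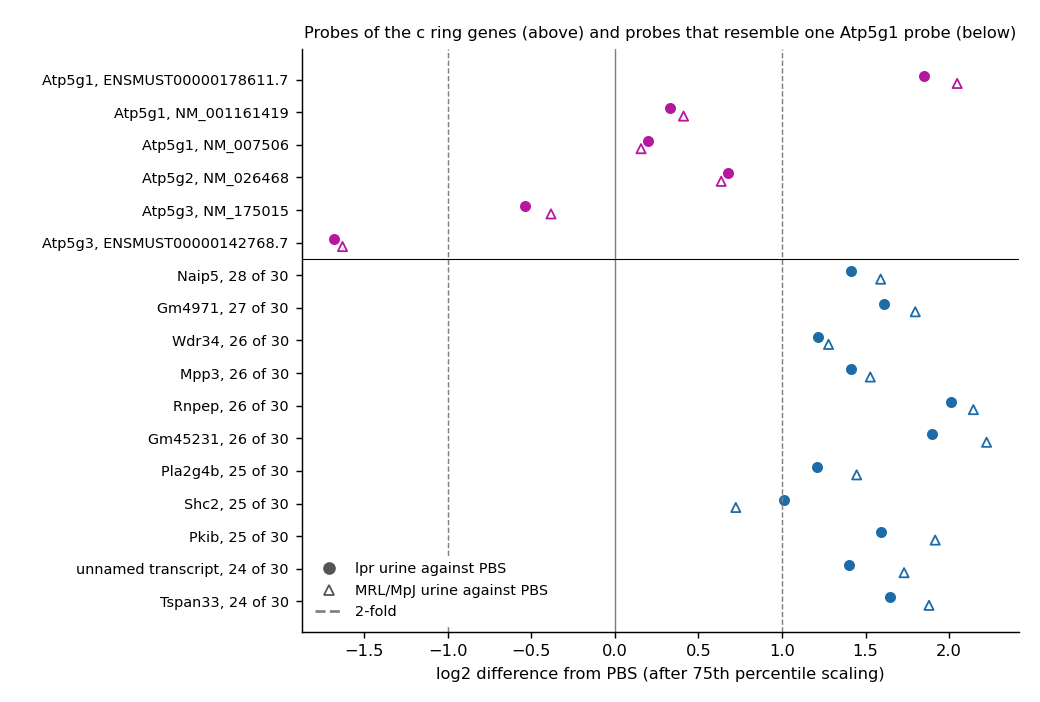
Log2 difference from PBS after 75th percentile scaling (x axis) of the 6 probes of the c ring genes, above the line, and of the 11 measured probes of other gene names that match the Ensembl probe of Atp5g1 at 24 or more of 30 positions, below it. Circles stand for lpr urine and triangles for MRL/MpJ urine, 1 array each, and dashed lines mark 2-fold. The 11 similar probes lie between 0.72 and 2.22, while the RefSeq probes of Atp5g1 lie between 0.16 and 0.41. Spike-in scaling would move all circles by -1.01 and all triangles by -0.90.

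Values of the respiratory chain probes also differed with the source of the probe, which went together with brightness. Of 131 probes, 106 were made for curated RefSeq messenger RNAs and 25 for other records, such as Ensembl predictions or sequenced clones. Of the 103 curated probes measured on all 3 arrays, 0 were 2-fold higher and 0 were 2-fold lower with either urine, with differences between -0.93 and 0.97 with lpr urine and between -0.84 and 0.91 with MRL/MpJ urine. Of the 18 other probes, 1 was 2-fold higher and 5 were 2-fold lower with either urine. Over all genes, each read from its chosen probe, 18.5% were higher and 12% lower with lpr urine, and 16.9% and 11.1% with MRL/MpJ urine. No share was computed over dim probes that had not been chosen. The 5 were dim second probes of genes whose curated probe stayed within 2-fold. One lies in Sdha, the flavin subunit of complex II, and read 13.7 units with lpr urine, 23.2 with MRL/MpJ urine and 261 with PBS. It differed by -3.19 and -2.63, against -0.22 and -0.17 on the chosen Sdha probe. The second probes of Ndufv2 (-1.82 and -1.55), Ndufs1 (-1.73 and -1.12), Ndufa10 (-1.07 and -1.03) and Atp5g3 made up the rest. The median PBS signal was 165 units for the other probes and 2536 for the curated ones, so source and brightness cannot be told apart here. Where a gene had several curated probes, as 21 genes did, they differed by a median of 0.13 with either urine and by at most 0.50.

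By complex, the members of complexes III and II tended below PBS, and those of I, IV and V were spread around 0. The median difference was -0.07 with lpr urine and -0.02 with MRL/MpJ urine in complex I, -0.21 and -0.17 in complex II, -0.54 and -0.49 in complex III, 0.07 and 0.10 in complex IV, and 0.06 and 0.04 in complex V. Relative to genes of the same PBS signal only complex III had a median below 0, at -0.34 and -0.29. There the median of complex II was 0.06 and 0.08. The median differences from PBS of complexes II and III were below 0 in each of the 10 settings compared, from -1.55 to -0.41 with lpr urine for complex III. Those of complexes I, IV and V took both signs over these settings, with spike-in scaling the lowest. The urine comparisons share the PBS array, so a value that is low in both is not a second observation.

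**Figure D3:**
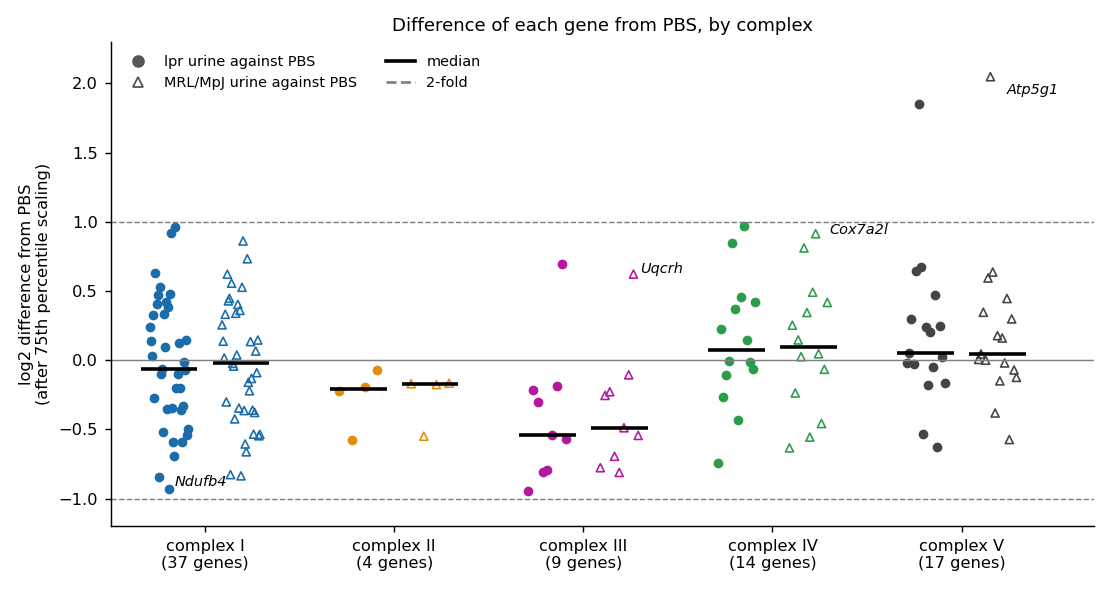
Log2 difference from PBS after 75th percentile scaling of each measured gene of complexes I to V, with filled circles for lpr urine to the left of open triangles for MRL/MpJ urine, 1 array each. Black bars are medians and dashed lines mark 2-fold. In complex III 8 of 9 genes lie below 0 with either urine, with medians of -0.54 and -0.49, and Atp5g1 is the one gene past 2-fold. Below the median of genes of the same PBS signal are 6 of these 9. Spike-in scaling would move all circles by -1.01 and all triangles by -0.90, which takes the medians of complexes IV and V below 0.

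Complex III takes electrons from ubiquinol and hands them to cytochrome c, and 8 of its 9 genes were lower than with PBS after scaling. Those 8 fall in 2 bins of PBS signal, described below, whose medians over all genes were also below 0. These medians were -0.34 and -0.20 with lpr urine and -0.33 and -0.20 with MRL/MpJ urine. Below the median of their bin were 6 of the 9 genes with either urine. Cyc1, which encodes the cytochrome c1 haem protein, read 775 units with lpr urine, 997 with MRL/MpJ urine and 3106 with PBS. It had the lowest difference of all members with lpr urine, -0.94, and stood at -0.78 with MRL/MpJ urine, and its curated probe gave -0.82 and -0.77. Uqcrc1, a core protein of the matrix side, read 810.0 units with lpr urine, 917 with MRL/MpJ urine and 2926 with PBS, a difference of -0.80 and -0.81. The second core protein gene, Uqcrc2, differed by -0.54 and -0.49. Uqcrb, a small subunit beside the quinone site, read 697 units with lpr urine, 861 with MRL/MpJ urine and 2533 with PBS, a difference of -0.81 and -0.69. Uqcrq, another small subunit, differed by -0.57 and -0.54. These 5 genes also lay below the median of genes of the same PBS signal, by -0.74 to -0.34 with lpr urine and -0.61 to -0.29 with MRL/MpJ urine. The lower quartiles of the bins that hold them were -0.83 and -0.76 with lpr urine and -0.82 and -0.74 with MRL/MpJ urine. Cyc1 lay below the lower quartile of its bin with either urine, and Uqcrc1 did with MRL/MpJ urine. Otherwise these genes lay between the quartiles of their bins.

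The remaining complex III genes were closer to the level of comparable genes. Uqcr11 differed by -0.30 and -0.23 and Uqcr10 by -0.22 and -0.25. Uqcrfs1, the Rieske iron-sulfur protein gene, differed by -0.19 and -0.11 and lay 0.15 and 0.22 above genes of the same PBS signal. Uqcrh, the hinge protein that docks cytochrome c1, was the exception in sign. It read 8550.4 units with lpr urine, 9301 with MRL/MpJ urine and 10990.5 with PBS, a difference of 0.69 and 0.62, which became negative under spike-in scaling. Uqcrh falls in the brightest of the bins of PBS signal described below, a wide bin with a median of 0.65 and 0.60. It lay 0.04 and 0.02 from that median. Over the 11 measured curated probes of complex III, 9 lay below 0 with either urine. Apart from that of Uqcrh, these probes have PBS signals in the range of bins whose medians were below 0.

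Complex II, succinate dehydrogenase, also belongs to the citric acid cycle, and all 4 of its genes differed from PBS by values below 0. Sdhb, the iron-sulfur subunit, read 1085 units with lpr urine, 1266 with MRL/MpJ urine and 3369 with PBS, a difference of -0.58 and -0.55. Sdhd, a membrane anchor, read 679.7 units with lpr urine, 729 with MRL/MpJ urine and 1488 with PBS, a difference of -0.07 and -0.17. Sdha stood at -0.22 and -0.17 and Sdhc, the other anchor, at -0.19 and -0.18. Relative to genes of the same PBS signal Sdhb stood at -0.38 and -0.35, whereas the other 3 stood at 0.01 to 0.28.

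Complex I, the NADH dehydrogenase, has an arm in the matrix that takes up electrons and passes them to ubiquinone, and an arm in the membrane that pumps protons. The 10 genes of its electron-input module had a median of -0.19 with lpr urine and -0.26 with MRL/MpJ urine. Ndufs1, its largest iron-sulfur subunit, read 672 units with lpr urine, 706 with MRL/MpJ urine and 1495 with PBS, a difference of -0.10 and -0.22. Ndufv1, which binds NADH, differed by 0.15 with either urine, and its iron-sulfur partner Ndufv2 by -0.54 and -0.55. Within this module Ndufa6 was the highest at 0.53 and 0.56, and Ndufv2 with Ndufv3 (-0.50 and -0.54) the lowest pair.

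The 6 genes of the quinone module had a median of -0.14 and -0.11. Ndufa5, an accessory subunit of this module, read 827 units with lpr urine, 958 with MRL/MpJ urine and 3092 with PBS. Its difference of -0.85 and -0.83 was the lowest of the complex after Ndufb4, and relative to genes of the same PBS signal it stood at -0.65 and -0.62. Ndufs3, Ndufs7 and Ndufs8, subunits of the same module, lay between -0.20 and 0.07.

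The 20 membrane-arm genes held both ends of complex I, with medians of 0.12 and 0.09. Ndufb4 read 798 units with lpr urine, 976 with MRL/MpJ urine and 3168 with PBS, a difference of -0.93 and -0.84. Ndufb6 read 966 units with lpr urine, 1059 with MRL/MpJ urine and 1060.0 with PBS, a difference of 0.92 and 0.86. Both encode small accessory subunits of the same arm, and neither is catalytic. Ndufc1 read 1388 units with lpr urine, 1357 with MRL/MpJ urine and 1485 with PBS, a difference of 0.96 and 0.73. Ndufb6 lay 1.24 and 1.14 above genes of the same PBS signal, and Ndufc1 lay 1.31 and 1.05 above. Next to Ndufb4, the lower values were those of Ndufb9 (-0.69 and -0.66), Ndufb8 (-0.59 and -0.61) and Ndufs5 (-0.59 and -0.53), and next to Ndufb6 the higher ones were those of Ndufa13 (0.63 and 0.62) and Ndufb5 (0.48 and 0.53). All positive values named in complex I were negative under spike-in scaling. Ndufa11b, a relative of Ndufa11 that RefSeq lists as non-coding, differed by 0.33 with either urine.

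Complex IV, cytochrome c oxidase, reduces oxygen, and its nuclear subunits come in general and tissue-bound forms. Among the 9 general subunits Cox5a was the lowest. It read 1859 units with lpr urine, 2297 with MRL/MpJ urine and 6479.6 with PBS, a difference of -0.74 and -0.63. Cox5b, its counterpart on the matrix side, differed by 0.22 and 0.25. Cox6a1 read 6517 units with lpr urine, 7597 with MRL/MpJ urine and 16282 with PBS, the brightest PBS value of any member. Its difference was -0.26 and -0.24. The brightest bin of PBS signal, which holds Cox6a1, had a median above 0, and Cox6a1 stood at -0.91 and -0.84 relative to it. Cox7a2 differed by 0.46 and 0.49, Cox8a by 0.42 with either urine, Cox6c by 0.37 and 0.34, Cox7b by 0.14 and 0.05, Cox6b1 by 0.00 and 0.03, and Cox7c by -0.07 with either urine.

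Cox7a2l encodes a protein that ties complex III to complex IV in supercomplexes. It read 11531 units with lpr urine, 12724 with MRL/MpJ urine and 12281 with PBS, so its signal hardly moved before scaling. Its difference was 0.97 and 0.91, the next highest after Atp5g1 with either urine, and -0.04 and 0.01 under spike-in scaling. It lay 0.32 and 0.31 above genes of the same PBS signal. Ndufa4 read 629 units with lpr urine, 807 with MRL/MpJ urine and 1544 with PBS, a difference of -0.24 and -0.07. Its relative Ndufa4l2, known as a gene induced by low oxygen, was not well above background at 3.54, 2.42 and 2.07 units.

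The tissue-bound isoforms of complex IV were dim or not measured. Cox6a2, the heart and muscle form, read 45.5 units with lpr urine, 62.1 with MRL/MpJ urine and 102 with PBS, a difference of -0.11 and 0.15. Cox7a1, also of heart and muscle, read 13.1 units with lpr urine, 13.8 with MRL/MpJ urine and 36.9 with PBS, a difference of -0.43 and -0.56. Cox8b, of the same tissues, was not well above background at 1.07, 1.07 and 1.82 units. Of the testis forms, Cox6b2 read 27.5 units with lpr urine, 30.8 with MRL/MpJ urine and 31.9 with PBS, a difference of 0.85 and 0.81. Cox7b2 read 7.51 units with lpr urine, 6.32 with MRL/MpJ urine and 15.8 with PBS, a difference of -0.01 and -0.46, and Cox8c was not well above background at 1.11, 1.11 and 1.09 units. The differences of Cox7a1, Cox6b2 and Cox7b2 lie in the range of signal where repeated spots differed by an SD of 0.37 or 0.12. Of 6 muscle and heart markers Actn2 and Myl2 were measured on all arrays, and Ckm, Myh6, Myh7 and Tnnt2 were well above background on none. Of 6 testis markers Prm1, Prm2 and Tnp1 were measured on all arrays, at 6.38 to 29.4 units.

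In complex V the 5 genes of the catalytic head had medians of 0.06 and 0.04. Atp5b, the catalytic beta subunit, differed by 0.06 and 0.04 and Atp5a1, the alpha subunit, by -0.02 and 0.01. Both are bright, and relative to the median of the brightest bin of PBS signal Atp5b stood at -0.60 and -0.56 and Atp5a1 at -0.67 and -0.60. Atp5d stood at -0.03 and 0.00, Atp5c1, the central shaft, at 0.30 and 0.35, and Atp5e at 0.65 and 0.59. The 4 genes of the peripheral stalk, Atp5pb, Atp5h, Atp5j and Atp5o, lay between -0.18 and 0.24. Among the small membrane subunits Atp5md was the lowest gene of the complex. It read 898 units with lpr urine, 1064 with MRL/MpJ urine and 2880.2 with PBS, a difference of -0.62 and -0.57. The other 4, Atp5j2, Atp5k, Atp5l and Atp5mpl, lay between -0.05 and 0.47. Under spike-in scaling all of these values were negative.

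Setting each gene against genes of the same PBS signal removed the constant part of any scaling. All genes measured on both arrays were put in 20 bins of equal size by PBS signal, and each member was compared with the median of its bin. The bin medians ran from 1.26 in the dimmest bin to -0.35 among fairly bright genes and back to 0.65 in the brightest with lpr urine, and from 1.10 to -0.33 and 0.60 with MRL/MpJ urine. The brightest bin was wide, from 6843 to 123800 units for lpr urine, and held 11 members. The bin below it had a median of -0.20 with either urine. Distances of these 11 members therefore depend on where the brightest bin begins. The members' median was 0.12 with lpr urine and 0.14 with MRL/MpJ urine, with 49 and 50 of 82 above their bin. This small excess was -0.10 and -0.05 when the bins were made on the mean signal of the 3 arrays, so it had no settled sign. Of the members 3 lay at least 2-fold above their bin with either urine (Atp5g1, Ndufb6 and Ndufc1), against 13.7% and 13% of all genes. At least 2-fold below were 0 with lpr urine and 1 with MRL/MpJ urine (Cox7b2, -1.03), against 12% and 11.5%. With 10 bins in place of 20, these counts below the bin were 4 and 3, and with all probes of each gene averaged they were 2 and 3. Complex III was the lowest here too, with a median of -0.34 and -0.29 and 6 of 9 genes below their bin.

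**Figure D4:**
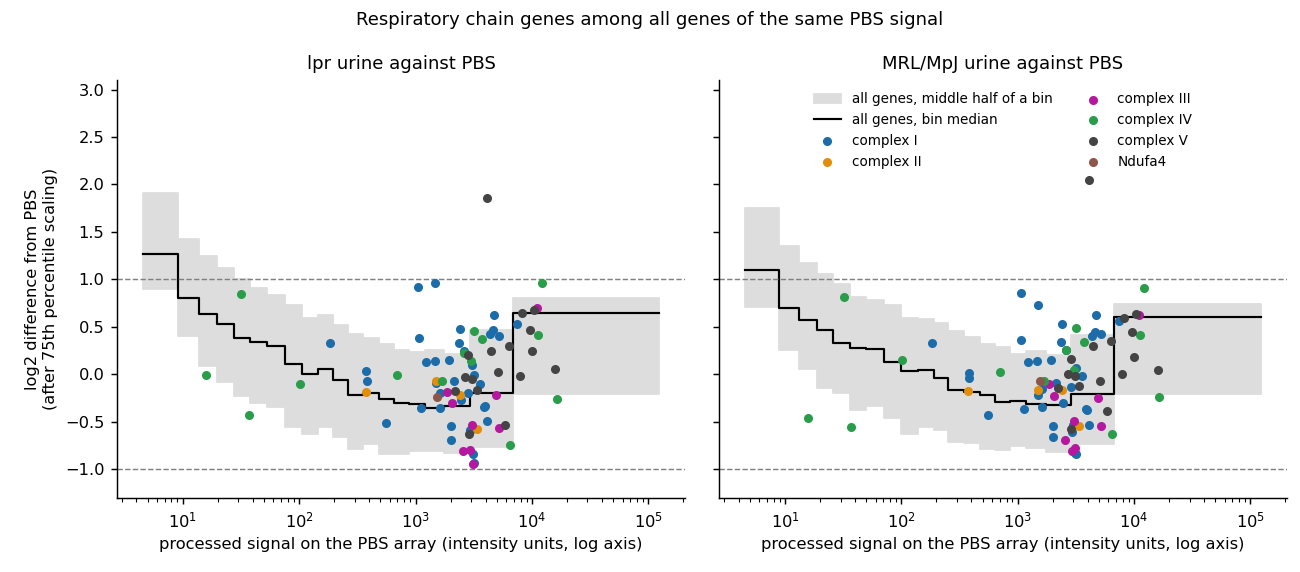
Log2 difference from PBS after 75th percentile scaling against the processed signal on the PBS array (intensity units, log axis), with lpr urine in the left panel and MRL/MpJ urine in the right. Points are the 82 measured genes, coloured by complex, the black line is the median of all genes in 20 bins of PBS signal and the grey band spans their quartiles, and dashed lines mark 2-fold. Members lie within 2-fold of PBS apart from Atp5g1, and the bright members above 0 sit in a bin whose own median is 0.65 with lpr urine and 0.60 with MRL/MpJ urine. Spike-in scaling would lower both members and bins by 1.01 and 0.90.

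Under spike-in scaling the same genes read as a broad fall. With that scaling 47 of 82 members were at least 2-fold lower with lpr urine and 36 with MRL/MpJ urine, and 81 and 80 lay below 0. Over all genes 44.7% and 40.8% were at least 2-fold lower under the same scaling, and the members' medians were -1.06 and -0.94.

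Between the urines themselves no member reached 2-fold. With lpr urine against MRL/MpJ urine, 0 of 82 members were 2-fold higher and 0 were 2-fold lower, where 0.34% and 0.06% of 20012 genes were. The median difference was -0.01 and the range -0.25 to 0.45. The highest values were those of Cox7b2 (0.45), Ndufc1 (0.23) and Ndufs1 (0.12), and the lowest those of Cox6a2 (-0.25), Atp5g1 (-0.20) and Cyc1 (-0.17). Beyond 2 SD of the repeated spots were 5 of 82 members (6.10%), 1 of them higher and 4 lower with lpr urine, against 12.7% of all genes. Of all 20012 genes, which include many dim ones, 1532 were higher and 1012 lower by this measure. Before scaling, 80 of the 82 members were dimmer with lpr urine than with MRL/MpJ urine, by a median of 0.20 log2 units. The whole lpr urine array was dimmer, with a 75th percentile of 75.7 units against 86.6. After scaling, the median over all genes was 0.005. No share of all genes dimmer before scaling was computed.

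The chain genes outside the naming pattern stayed within 2-fold as well. Probes named for mitochondrially encoded subunits were included in this set, and 15 of its 16 genes were measured. COX1, the catalytic subunit of complex IV, read 31309 units with lpr urine, 33922 with MRL/MpJ urine and 38619 with PBS, a difference of 0.75 and 0.68. CYTB, the cytochrome b of complex III, read 20799.7 units with lpr urine, 22784 with MRL/MpJ urine and 30446 with PBS, a difference of 0.51 and 0.44. Both genes are as bright as those of the brightest bin, whose own median was 0.65 and 0.60. The complex I subunits ND1, ND4 and ND4L differed by 0.41 to 0.57, ND6 by 0.93 and 0.98, ND2 by 0.07 and 0.06, and ND5 by -0.19 and -0.16. ATP8 of complex V differed by 0.71 and 0.59. The ND3 probe, at -0.29 and -0.35, is placed on chromosome 1, not on mitochondrial DNA, by the array's annotation. Under spike-in scaling the mitochondrially encoded values named here were negative, except that of ND6 with MRL/MpJ urine. Cox4i1, the general complex IV subunit 4, differed by 0.61 and 0.53 and its lung form Cox4i2 by 0.74 and 0.51. Cycs, the somatic cytochrome c, differed by -0.59 and -0.49, Ndufab1, the mitochondrial acyl carrier protein, by -0.36 and -0.40, and Atpif1, the inhibitor of ATP synthase, by -0.05 and -0.13. The testis cytochrome c Cyct was not well above background.

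Lists of genes that feed, build or regulate the chain held more genes past 2-fold than the chain itself. Among genes between the quartiles of the members' PBS signal, 18.6% were 2-fold lower with lpr urine and 17.1% with MRL/MpJ urine. Higher were 6.71% and 6.59% of them. The counts of lower assembly factors and citric acid cycle genes that follow are near these shares. Of 51 measured assembly factors 0 were 2-fold higher with either urine, and 9 were 2-fold lower with lpr urine and 10 with MRL/MpJ urine. Sdhaf1, which inserts the iron-sulfur clusters of complex II, read 132 units with lpr urine, 173 with MRL/MpJ urine and 1071 with PBS, a difference of -1.97 and -1.77. Sco1 (-2.33 and -1.65) and Coa7 (-2.08 and -1.87), both needed to build complex IV, were the lowest of the list with lpr urine. Both were dim, Sco1 at 6.18 units with lpr urine, 11.3 with MRL/MpJ urine and 64.5 with PBS. Coa7 read 7.47, 9.89 and 65.9 units in the same order. Their urine signals lie where repeated spots differed by an SD of 0.37. Higd1a, a small protein induced by low oxygen, differed by -1.80 and -1.75. Of 26 measured genes of the citric acid cycle and pyruvate entry, 5 were 2-fold lower with lpr urine and 4 with MRL/MpJ urine, and 0 were higher. They included Mpc1, a pyruvate carrier of the inner membrane (-1.52 and -1.45), and Pdk1, a kinase that shuts pyruvate dehydrogenase (-1.14 and -1.23), although the probes of Pdk1 ranged from -2.02 to -0.16 with MRL/MpJ urine.

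Glycolysis, the cytosolic route that supplies pyruvate, was the list with the lowest medians. Of 21 measured genes 14 were 2-fold lower and 1 was higher with either urine, with a median of -1.63 with lpr urine and -1.50 with MRL/MpJ urine. Pgam1, phosphoglycerate mutase, read 475 units with lpr urine, 653 with MRL/MpJ urine and 8609.8 with PBS, a difference of -3.12 and -2.86. Hk2, an inducible hexokinase, differed by -3.36 and -3.85 and Slc16a3, the lactate exporter, by -4.31 and -4.22. Spike-in scaling makes these differences more negative still.

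Of 21 measured regulators of mitochondrial biogenesis 3 were 2-fold higher and 4 lower with lpr urine, and 2 were higher and 3 lower with MRL/MpJ urine. Ppargc1a, a coactivator that drives mitochondrial biogenesis, was dim, at 26.6 units with lpr urine, 30.6 with MRL/MpJ urine and 17.6 with PBS, a difference of 1.65 and 1.66. Gabpb1, a subunit of the ETS factor GABP, differed by -1.50 and -1.61, with another of its probes at 1.03 with MRL/MpJ urine. Of 77 mitochondrial ribosomal protein genes 16 were 2-fold lower and 1 higher with lpr urine, and 15 were lower and 0 higher with MRL/MpJ urine. Of 82 cytosolic ribosomal protein genes 2 were lower and 0 higher with either urine, with a median of 0.76 and 0.70. Of 23 genes of carriers and protein import 3 were lower with lpr urine and 2 with MRL/MpJ urine, and of 21 genes of mitochondrial stress and chaperones 4 were lower and 1 higher with either. Of 38 proteasome genes 6 were lower and 1 higher with lpr urine, and 7 were lower and 2 higher with MRL/MpJ urine. The shares over all genes given above, 18.5% higher and 12% lower with lpr urine and 16.9% and 11.1% with MRL/MpJ urine, are the background for the counts of every list. Among genes between the quartiles of the members' PBS signal, 18.6% and 17.1% were lower. Relative to genes of the same PBS signal, the glycolysis median was -1.83 and -1.78. The cytosolic ribosomal median was 0.11 and 0.10. Medians of the other lists outside the chain ran from -0.35 to -0.12 with lpr urine and from -0.30 to -0.18 with MRL/MpJ urine.

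**Figure D5:**
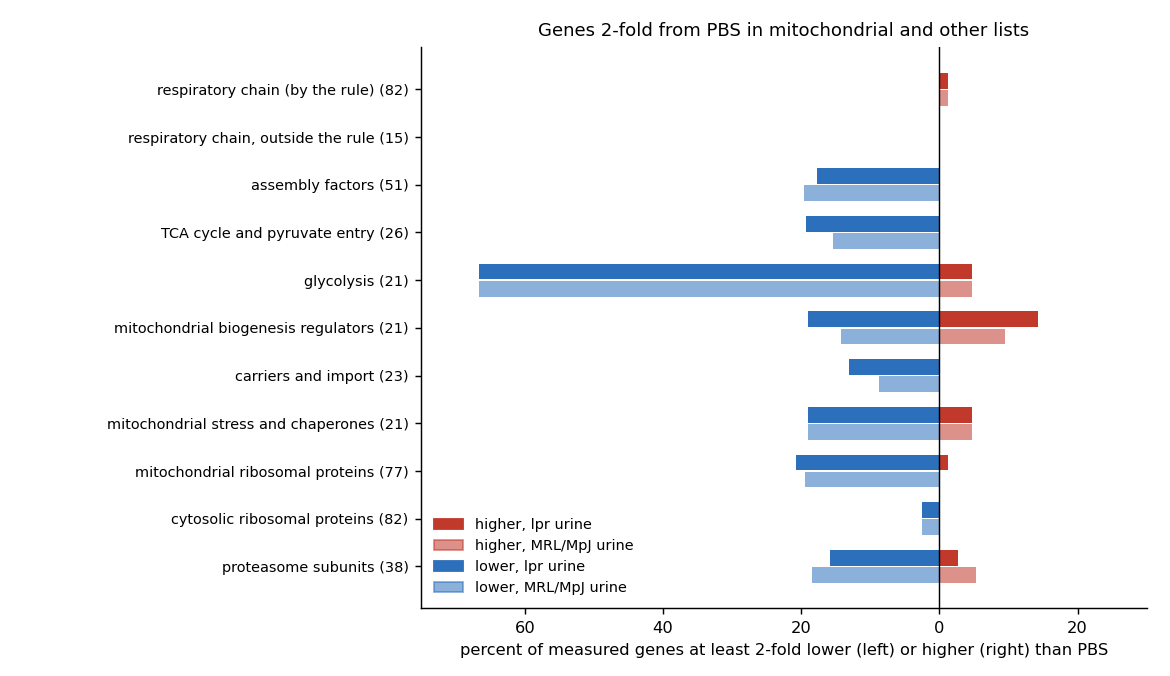
Percent of the measured genes of each list at least 2-fold lower (left of 0) or higher (right of 0) than PBS, with the number of measured genes in brackets, lpr urine above MRL/MpJ urine in each pair, 1 array each. Of the respiratory chain genes 1 of 82 is past 2-fold, and of the glycolysis genes 14 of 21 are lower. The counts are after 75th percentile scaling, and spike-in scaling would give 47 and 36 lower among the 82.

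Promoters were looked at because subunits of all complexes are known to share binding sites for NRF1, ETS factors such as GABP, and YY1. RefSeq promoters (build GRCm38.p6, 250 bases before to 50 after the start, 300 bases in all) were at hand for 69 of the 85 genes, with 74 starts. The NRF1 motif, searched as GCGCANGCG on both strands, was in 21 of these 74 promoters (28.4%) and in 6.25% of all 32851. The ETS motif CCGGAAG was in 17 (23.0%) and in 8.86% of all, and the YY1 motif ANATGGCG in 13 (17.6%) and in 3.65% of all. The median GC content was 57.5% in the members' promoters and 52.7% in all, and the motif shares were not adjusted for it. The 20 measured genes with an NRF1 motif had a median difference of -0.07 with lpr urine and -0.12 with MRL/MpJ urine, and the 48 without had -0.01 and 0.01. For the ETS motif the medians were -0.07 and -0.09 in 17 genes with it and -0.01 and -0.02 in 51 without, and for YY1 they were -0.01 and -0.02 in 13 genes with it and -0.05 and -0.04 in 55 without. With the motifs AAGGTCA, for the ERR receptors, and ACGTG, the core of the hypoxia response element, the medians were -0.21 and -0.26 for 8 genes with the first (-0.01 and -0.01 for 60 without), and -0.03 and 0.00 for 17 genes with the second (-0.05 and -0.07 for 51 without). Matches are letters in a window and not shown sites.

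The promoters of a pair of low and a pair of high members are printed 5′ to 3′ on the gene's strand, with NRF1, ETS and YY1 motif matches in capitals. Among the members with a promoter at hand, Ndufb4 (chr16:37654319-37654618, minus strand) and Ndufa5 (chr6:24527477-24527776, minus strand) had the lowest mean of both differences. The first holds 3 NRF1 matches and the second holds 1, also in the window of its other start. Leaving out Atp5g1, whose RefSeq probes were far lower than its chosen probe, Cox7a2l (chr17:83514284-83514583, minus strand) and Ndufb6 (chr4:40279372-40279671, minus strand) had the highest. Cox7a2l holds no match to these 3 motifs, and Ndufb6 holds 1 ETS match. These 4 promoters illustrate the motifs, and the medians above are the comparison over all members.
Ndufb4: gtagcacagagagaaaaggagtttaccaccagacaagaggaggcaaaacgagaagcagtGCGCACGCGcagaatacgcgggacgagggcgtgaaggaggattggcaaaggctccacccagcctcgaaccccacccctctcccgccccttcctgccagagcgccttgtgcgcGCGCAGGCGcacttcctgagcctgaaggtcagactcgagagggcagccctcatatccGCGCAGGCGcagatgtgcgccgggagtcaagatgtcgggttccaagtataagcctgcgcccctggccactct
Ndufa5: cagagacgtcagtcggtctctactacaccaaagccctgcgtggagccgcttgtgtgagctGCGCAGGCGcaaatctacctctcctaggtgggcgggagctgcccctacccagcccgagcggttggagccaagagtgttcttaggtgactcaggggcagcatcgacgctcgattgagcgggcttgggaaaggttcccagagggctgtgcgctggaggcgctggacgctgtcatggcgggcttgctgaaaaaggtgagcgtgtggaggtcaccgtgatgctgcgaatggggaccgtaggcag
Cox7a2l: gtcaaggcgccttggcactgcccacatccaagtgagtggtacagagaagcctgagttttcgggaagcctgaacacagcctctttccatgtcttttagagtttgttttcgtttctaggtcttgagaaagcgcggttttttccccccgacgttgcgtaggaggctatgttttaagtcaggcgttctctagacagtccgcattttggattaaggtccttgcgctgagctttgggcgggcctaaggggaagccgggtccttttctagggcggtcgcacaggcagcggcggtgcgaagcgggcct
Ndufb6: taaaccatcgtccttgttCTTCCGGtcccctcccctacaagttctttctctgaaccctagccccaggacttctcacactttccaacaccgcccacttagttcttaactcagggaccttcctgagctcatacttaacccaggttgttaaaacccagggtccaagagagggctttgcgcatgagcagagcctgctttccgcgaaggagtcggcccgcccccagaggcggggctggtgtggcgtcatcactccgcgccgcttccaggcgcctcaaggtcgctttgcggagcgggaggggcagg

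Markers of cell types that a spleen holds were measured on all 3 arrays, and their medians took both signs. The 5 T cell markers on the array had a summed signal of 11015 units with lpr urine, 11853 with MRL/MpJ urine and 20351 with PBS, and a median difference of 0.22 and 0.14. The medians were 0.69 and 0.80 for 6 macrophage and monocyte markers and 0.84 and 0.73 for 5 neutrophil markers. Among the neutrophil markers Mpo alone lay below 0, at -1.19 and -0.61. For 3 NK cell markers the medians were -0.49 and -0.52, the only negative ones with this scaling, and of these markers Ncr1 alone lay above 0, at 1.17 and 1.26. The medians were 0.08 and 0.18 for 3 of 4 dendritic cell markers, 0.74 and 0.61 for 5 erythroid markers, and 0.76 and 0.52 for 4 platelet markers. Spike-in scaling moves these values by -1.01 with lpr urine and -0.90 with MRL/MpJ urine, which makes every median named here negative. The part of cell composition in the respiratory chain values was not tested. Of 6 markers of urinary tract epithelium only Upk1a was measured, at 8.77 units with lpr urine and 9.52 with MRL/MpJ urine, a difference of -0.51 and -0.59 from PBS, and the other 5 were well above background on none.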

How the data were processed

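RNA of 3 spleen cell cultures was measured on 3 one-colour Agilent arrays of 1 slide and 1 scan, 1 per condition. Per the file headers and the submitters' processing notes, the deposited intensity values were extracted with Agilent Feature Extraction 12.0.3.1, whose processed signal is already background-corrected. The deposited files hold spots that had not been normalized between arrays. Control spots and flagged outliers were left out, spots of a probe were averaged as log2 signal, and each array was scaled by its 75th percentile. A log2 difference was computed from these scaled values. Each gene was read from the probe well above background on most arrays, with ties settled by the higher mean signal. Gene names and mm9 positions are those of the array's annotation. No test was possible with 1 array per condition, so a call is a difference of 2-fold or more, given beside the same share over all measured genes. The genes, lists, motifs and comparisons were chosen with earlier results of these data known. Values are named for members past 2-fold, the highest and lowest of each complex, the isoform sets, the extremes between the urines, and up to 4 genes per list. The number of arrays limits the precision. Alternatives were scaling by the median, by the spike-ins or over probes measured on all arrays, quantile normalization, normexp background correction with an offset of 50 (limma 3.58.1, R 4.3.3), other probe rules, no filter, other bins and a 1.5-fold limit. The counting was tested on simulated data (Python 3.11.15, pandas 2.3.3, numpy 2.4.6). Values of members not named in the text stand in the group counts and medians, and 1 list of spleen cell markers is not reported here.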

Additional observations from a re-analysis of the deposited data

How the results depend on the processing

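With 1 array per condition, no alternative measures the spread between cultures. No paired analysis was possible because each condition has 1 array. The members' median difference from PBS was -0.06 with lpr urine and -0.03 with MRL/MpJ urine. It was -0.45 and -0.40 with arrays scaled by their medians, -1.06 and -0.94 by the spike-ins, 0.0710 and 0.0893 by the 75th percentile of probes measured on all arrays, and -0.33 and -0.24 after normexp. Between the urines it was -0.11 by the spike-ins and -0.0785 after normexp. The median distance from genes of the same PBS signal (0.12 and 0.14) was 0.0467 and 0.0519 with all probes of each gene averaged, and -0.10 and -0.0468 with bins on the mean signal. Members 2-fold lower with lpr urine and MRL/MpJ urine, 0 and 0, numbered 8 and 7 with median scaling, 47 and 36 with the spike-ins, 6 and 3 after normexp, 2 and 2 with averaged probes, and 10 and 8 at 1.5-fold. Members 2-fold higher, 1 and 1, numbered 4 and 2 with the 75th percentile of probes measured on all arrays, 3 and 2 without a filter on dim probes, 9 and 9 at 1.5-fold, and 0 and 0 with curated RefSeq probes only, an alternative chosen after seeing the data. With lpr urine they were 0 by the spike-ins and 2 after quantile normalization, and with MRL/MpJ urine 0 with averaged probes. The constant scalings differ only by their shift, and the cause of the other changes was not tested. Under all alternatives run, 0 members were 2-fold higher and 0 were 2-fold lower between the urines.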

Other observations

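Markers of brown fat were included because Cox8b and Cox7a1 are also known from that tissue. Ucp1, the uncoupling protein that lets protons bypass ATP synthase, read 27.6 units with lpr urine, 28.4 with MRL/MpJ urine and 1.03 with PBS, and was well above background on both urine arrays but not with PBS. The fat hormone gene Adipoq read 22.5 units with lpr urine, 22.1 with MRL/MpJ urine and 1.80 with PBS, and Ldhc, a testis lactate dehydrogenase gene, read 61.8, 66.6 and 4.22 units in the same order, both with the same calls. Cidea, also listed for brown fat, was well above background on none of the arrays. Many genes were well above background with a urine but not with PBS. Of 20466 genes measured with lpr urine 19368 were also measured with PBS, and of 20803 with MRL/MpJ urine 19639 were. Polg2, a subunit of the polymerase that copies mitochondrial DNA, read 3023 units with lpr urine, 4463 with MRL/MpJ urine and 1331 with PBS on its chosen probe, a difference of 2.24 and 2.61, while another of its probes gave 0.20 with MRL/MpJ urine. Ddit3, a stress-induced transcription factor gene, differed by 3.32 and 3.58 on its chosen probe and had a probe at -1.24 with MRL/MpJ urine.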
